A study of Mus musculus with 8 samples.

Results

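Klf2 and Klf4, members of the Krüppel-like family of zinc finger transcription factors, were followed in a fast muscle of the mouse hindlimb, the extensor digitorum longus (EDL), in male Swiss Webster animals. The members are the probes whose gene symbol in the probe annotation is Klf2 or Klf4, which gave 2 probes, 1 per gene, of 10500 in the table, or 2 of 6370 genes. In each of 4 mice, numbered 183, 197, 438 and 440 in the titles, 1 leg was made to contract for 4 h by stimulation of its sciatic nerve. The unstimulated EDL of the opposite leg was the control, so each control muscle comes from an animal whose other leg was working. Each of the 8 muscles was read on its own 1-colour CodeLink array, and values are the authors' normalized intensities on a linear scale. The age of the animals was not given in the sources used here. Both genes were chosen because earlier results of these data had them higher in stimulated muscle, and the study itself named Klf4 among its increased genes. Their stimulated-minus-contralateral values are therefore a description, with no test.

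Krüppel-like factors bind GC-rich and CACCC-containing DNA through C-terminal zinc fingers and act as activators or repressors depending on their partners. Klf2 is best known from endothelium, where flowing blood induces it through the kinase ERK5 and MEF2 factors, and from resting lymphocytes, whose homing receptors it controls. Klf4 shares much of this endothelial role, shapes smooth muscle and macrophage phenotype, restrains the cell cycle in epithelia, and is a member of the factor set that returns somatic cells to pluripotency. Both behave as immediate early genes in many cells, and in mouse myoblasts both act downstream of ERK5 in fusion.

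The sequences directly upstream of the gene starts are shown because the 2 genes were higher in the same muscles. They are 250 bases each from RefSeq's mouse assembly GRCm38.p6, written on the gene's own strand at chr8:72318812-72319061 (plus strand) for Klf2 and chr4:55532476-55532725 (minus strand) for Klf4, and are reference sequence, not that of the Swiss Webster animals. Capitals mark matches on either strand to the short site of the cAMP response element (TGACG), to the TATA motif searched (TATAA) and to the MEF2 consensus.
Klf2: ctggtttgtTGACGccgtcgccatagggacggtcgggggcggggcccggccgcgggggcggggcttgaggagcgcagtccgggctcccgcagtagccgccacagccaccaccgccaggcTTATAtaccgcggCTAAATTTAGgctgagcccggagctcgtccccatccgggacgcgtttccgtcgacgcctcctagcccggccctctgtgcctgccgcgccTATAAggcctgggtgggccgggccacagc
Klf4: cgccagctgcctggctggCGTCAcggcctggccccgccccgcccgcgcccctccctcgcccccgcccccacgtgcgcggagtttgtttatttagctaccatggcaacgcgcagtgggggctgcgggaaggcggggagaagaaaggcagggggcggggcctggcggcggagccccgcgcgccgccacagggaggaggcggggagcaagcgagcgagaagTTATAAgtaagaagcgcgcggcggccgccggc
Counting back from the gene start, the short site began at -241 in Klf2 and -232 in Klf4, and the TATA match nearest the start began at -29 in Klf2 and -31 in Klf4. Each window held 1 more TATA match, on the opposite strand, at -131 in Klf2 and at -32 in Klf4, where it overlaps the first. The short site is in 17.8% and the TATA motif in 22.8% of 32851 mouse promoter windows of the same length. The MEF2 consensus, held by 2.92% of windows, matched at -118 to -109 in Klf2 and had no match in the Klf4 window. Matches to the EGR motif (GCGNGGGCG, 4.70% of windows) were present in both, 1 in Klf2 and 2 in Klf4, and these overlap the GC boxes (GGGCGG, 32.7% of windows). Klf4 alone of the pair held an E-box (CACGTG, 6.02% of windows), which contains the hypoxia response core ACGTG (16.6%). Klf2 alone held a CACCC box (CACCC, 52.0%). The full cAMP response element (TGACGTCA, 1.55%), the AP-1 motif (TGANTCA, 6.75%) and the CArG box (1.47%) had no match in either. Among the 9 other KLF and SP genes with a window, 0 held a MEF2 match, 4 held a short site and 1 held a TATA match. Of the same 9, 3 held the EGR motif (Klf15, Klf3 and Sp4), 6 a GC box and 9 a CACCC box. Both windows are rich in G and C, at 71.2% and 74.0% against a median of 52.4% over all windows. These matches describe letters in a window and are not binding sites measured here.

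**Figure D1:**
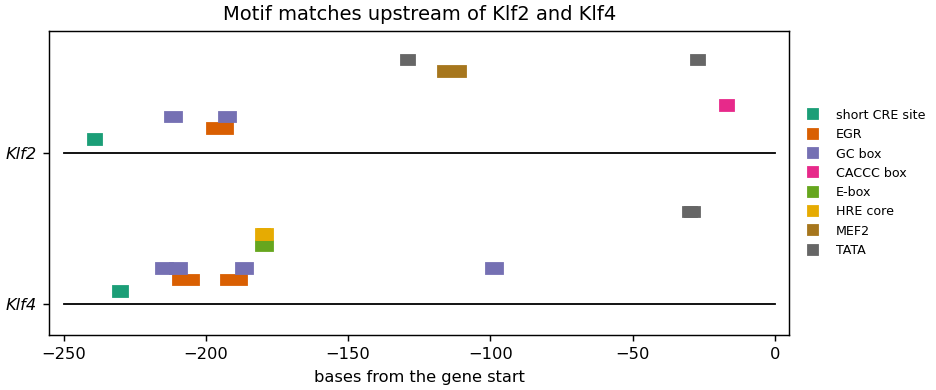
Positions of motif matches in the 250 bases upstream of Klf2 and Klf4, with the distance from the gene start in bases on the horizontal axis and 1 coloured block per match. Both genes have a short site near the far end and a TATA match close to the start, and the MEF2 match lies in Klf2 at -118 to -109.

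The 8 arrays had medians between 0.900 and 0.939 intensity units and held 10367 to 10474 values each. Mean intensities were lower in mice 183 and 197, at 10.4 to 12.2 units, than in mice 438 and 440, at 16.5 to 19.2 units. The fast fibre markers fixed for the tissue check, 8 genes measured of 11, were above the intensity floor on every array, which does not go against the EDL label. Values below the floor of 0.0937 units were raised to it before taking log2, and no Klf2 or Klf4 value was at it. The change of a gene is the difference in log2 intensity between the 2 muscles of a mouse, stimulated less contralateral. Over the 10406 tested probes the median change was -0.14, so a change is also given relative to that value for both members.

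Klf4 transcript was higher in the stimulated muscle of all 4 mice. Its intensity in contralateral EDL was 9.91, 3.90, 7.13 and 8.32 units in mice 183, 197, 438 and 440. In stimulated EDL it was 25.6, 12.4, 31.6 and 31.1 in the same order. Every stimulated muscle lay above every contralateral muscle, the lowest stimulated value being 1.25 times the highest contralateral one. Within each mouse the stimulated muscle had 2.58, 3.18, 4.44 and 3.74 times the contralateral intensity, so the smallest ratio was in mouse 183 and the largest in mouse 438. The mean log2 change was 1.77 ± 0.33 (SD, n = 4 mice), which is 3.42-fold, and limma's moderated standard error (SE) was 0.19. Relative to the median of all probes the change was 1.91.

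Klf2 transcript was higher in the stimulated muscle of the 3 mice that have both values. Its contralateral intensity was 21.2 in mouse 197, with 44.6 and 45.6 in mice 438 and 440, and the table holds no value for the contralateral muscle of mouse 183. Its stimulated intensity was 68.6, 47.7, 189 and 137 in mice 183, 197, 438 and 440. The groups did not overlap, though only by a narrow margin on the deposited scale: the stimulated muscle of mouse 197 was at 1.05 times the highest contralateral value. That margin rests on 3 contralateral muscles. The missing one, from mouse 183, had the highest contralateral Klf4, at 9.91 units, so whether all 8 muscles would stay apart cannot be told. Ratios within a mouse were 2.25 in mouse 197, 4.25 in mouse 438 and 3.00 in mouse 440. The mean log2 change was 1.61 ± 0.46 (SD, n = 3 mice), or 3.06-fold, with a limma SE of 0.23, and the fit had to leave out mouse 183. Relative to the median of all probes it was 1.75.

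**Figure D2:**
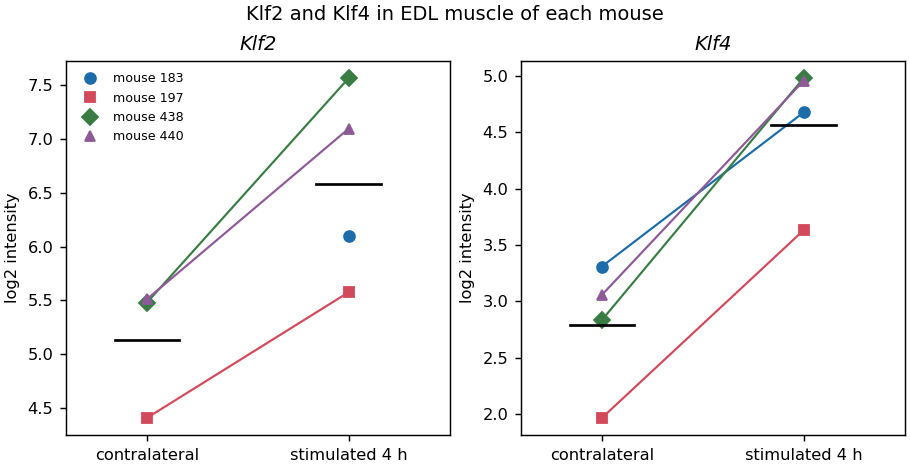
Log2 intensity of Klf2 (left) and Klf4 (right) in the contralateral and stimulated EDL of each mouse, with a line joining the muscles of 1 mouse and a black bar at the group mean. Every joined pair slopes upward, mouse 197 is lowest in each group for both genes, and mouse 183 has no contralateral Klf2 value.

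Set against the whole array, 0.971% of the 10406 tested probes had a larger change than Klf2 and 0.750% a larger change than Klf4. All stimulated values stood above all contralateral values in 1.63% of tested probes, among them both members, Klf2 with only 3 contralateral values. In 8.57% of tested probes the stimulated muscle was higher in every mouse with both values. With limma and Benjamini-Hochberg adjustment 1.34% of probes passed at adjusted p 0.05 (1.11% higher and 0.231% lower). Because the members were chosen from this comparison, nothing is read from their place in it.

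The 2 genes followed each other across animals. In contralateral EDL both were lowest in mouse 197, then mouse 438, then mouse 440, and Klf4 was highest in mouse 183. In stimulated EDL both were lowest in mouse 197, then mouse 183, then mouse 440, and highest in mouse 438. The mean intensity of the whole array had the same order among the stimulated muscles, at 10.4, 12.0, 16.5 and 17.7 units. Among the contralateral muscles it was 12.15, 12.25, 18.6 and 19.2 units in mice 183, 197, 438 and 440. That is the order of Klf2 in the 3 mice with a value, but mouse 183, lowest here, was highest for Klf4. The part of array intensity in the order of the members was not tested. After quantile normalization Klf2 kept its order and Klf4 did not, with mouse 440 highest at a log2 intensity of 4.83 and mouse 438 at 4.66. Over the 7 arrays with both values, log2 intensities of Klf2 and Klf4 correlated at a Pearson r of 0.93. These arrays share the stimulation contrast, the mice and the array scaling, so the coefficient is a description. The change of Klf2 was smaller than that of Klf4 in each of 3 mice, by 0.50 in mouse 197, 0.06 in mouse 438 and 0.32 in mouse 440 on the log2 scale.

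Rescaling widened the gap between the groups. Between the lowest stimulated and the highest contralateral muscle, the gap for Klf2 was 0.07 on the log2 scale as deposited, 0.85 after quantile normalization and 0.86 after cyclic loess. The gap for Klf4 was 0.32, 0.53 and 0.61. The changes in mouse 438 stayed the largest for both genes under each scaling, at 2.08 and 2.15 for Klf2 and 2.09 and 2.19 for Klf4 after quantile normalization and cyclic loess.

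Both members had their largest measured change in mouse 438, while Klf2 has no change in mouse 183. Of 22 measured immediate early genes other than the members, which cells switch on within minutes to hours of a stimulus, 10 rose and 0 fell (limma), with a median change of 1.39 against -0.14 over all probes. Of all tested probes 1.11% were called higher. The list was written with earlier results of these data known, so the count is a description. It leaves out Myc, also an immediate early gene, which did not pass (limma adjusted p 0.105). The 10 that rose include Fos, a component of AP-1 (log2 change 2.43 ± 0.25, SE, 4 of 4 mice), the zinc finger factor Egr1 (2.63 ± 0.35), the orphan nuclear receptor Nr4a1 (1.45 ± 0.19) and the leucine zipper factor Mafk (2.31 ± 0.32). The count was 0 without mouse 183, 5 without mouse 197 and 0 when the pairing was ignored. Of the 4 genes named, Nr4a1 was the one whose call was also lost without mouse 197. Among the 10 that rose, 7 had their largest change in mouse 440, 2 in mouse 183 and 1 in mouse 197, which leaves 0 for mouse 438. Among all 22 measured, the largest change was in mouse 440 for 10 genes, mouse 197 for 6, mouse 438 for 4 and mouse 183 for 2. Among all 112 probes that limma called higher and that had values in every mouse, the 2 members left out and these 10 genes included, mouse 440 held the largest change for 70 and mouse 438 for 15. Over all 10245 tested probes with values in every mouse, mouse 440 held it for 2475, mouse 438 for 2429, mouse 197 for 2326 and mouse 183 for 3015. The SD of the change over mice was 0.33 for Klf4 and 0.46 for Klf2, with a range of 0.37 to 1.42 over the 10 immediate early genes and a median of 0.47 over all tested probes.

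**Figure D3:**
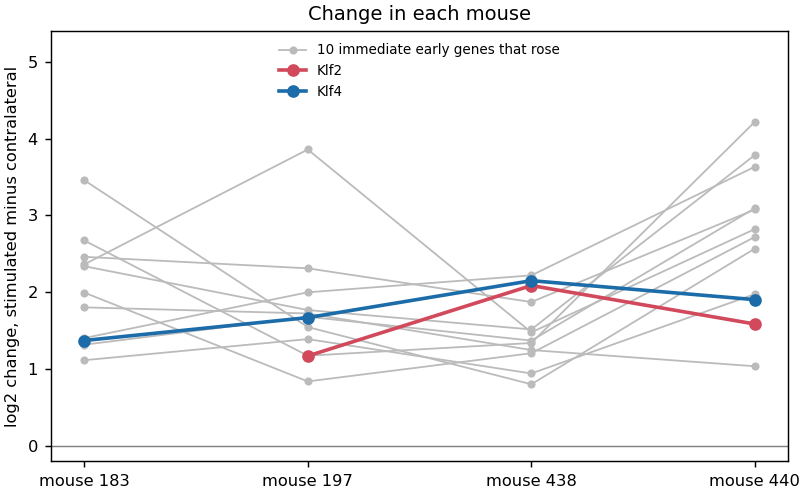
Log2 change of Klf2 (red), Klf4 (blue) and the 10 other immediate early genes that rose (grey) in each mouse, with the lines joining 1 gene's values across mice that have no order. Klf2 and Klf4 peak in mouse 438 at 2.09 and 2.15, and 7 of the grey genes peak in mouse 440.

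None of the other KLF and SP genes passed the test. The array measured 11 of 24 listed relatives, 8 KLF and 3 SP genes, and limma called 0 of them, with 2 of the 11 at unadjusted p under 0.05 against 15.2% of all probes. Their median change was -0.16, close to the -0.14 of all probes, and 8 of the 11 were negative. Most of these probes were dim: only 4 of the 11 were left when the dimmest 50% of probes were removed, with 0 called. The 2 genes at unadjusted p under 0.05, Klf5 and Klf7, were among the 4.

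Klf7, a factor of neuronal and adipose differentiation, had the largest change of these relatives. Its contralateral log2 intensities were 1.74, 1.97, 2.87 and 2.24 in mice 183, 197, 438 and 440, and its stimulated ones were 3.13, 2.96, 2.96 and 4.07. The groups did not overlap, but mouse 438 differed by only 0.09. The fitted change was 1.08 ± 0.27 (SE, n = 4 mice, limma adjusted p 0.112). Without mouse 438 it was 1.40 and passed (adjusted p 0.0455).

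Klf5, which drives smooth muscle and epithelial growth, had log2 intensities of 1.73, 1.89, 2.51 and 1.67 in contralateral and 2.80, 2.38, 2.86 and 3.21 in stimulated EDL. It was higher in 4 of 4 mice, with overlapping groups and a change of 0.86 ± 0.23 (adjusted p 0.137, limma). The remaining KLF genes stood near the bulk of the array. Klf9, a glucocorticoid and thyroid hormone target, changed by -0.34 ± 0.18 and Klf13, known from lymphocytes, by -0.29 ± 0.24. Klf10, a TGF-beta-induced factor, was at -0.11 ± 0.26, the repressor Klf12 at 0.07 ± 0.23 and the repressor Klf3, which recruits CtBP, at -0.41 ± 0.38, with -1.91 in mouse 440. Klf15, a glucocorticoid-induced regulator of muscle amino acid and lipid use, was dim, with 2 of 8 arrays at the floor, and its changes of -1.33, 0.91, 0.54 and -0.37 took both signs. The SP genes, ubiquitous or developmental GC box factors, were Sp1 (-0.30 ± 0.24), Sp4 (-0.32 ± 0.32) and Sp5 (-0.16 ± 0.29).

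**Figure D4:**
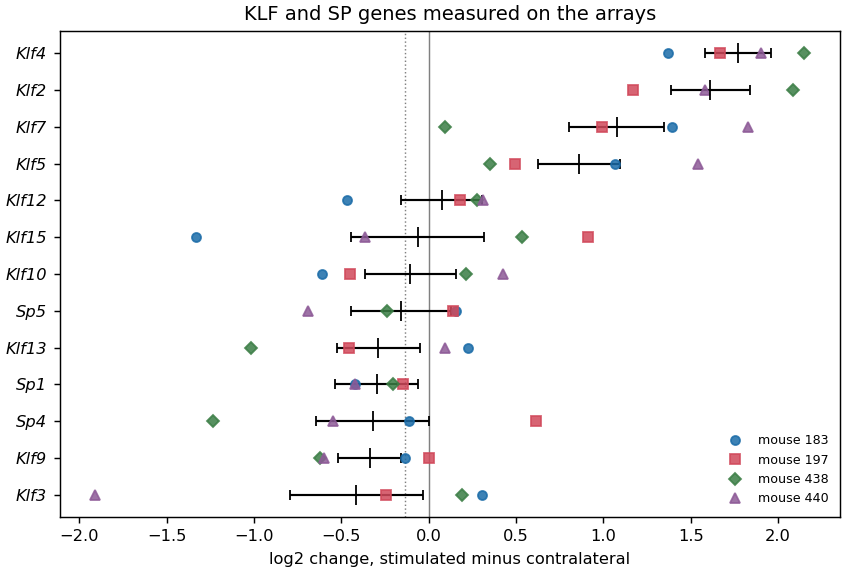
Log2 change of every KLF and SP gene on the array, with 1 symbol per mouse and, in black, the change fitted over mice with its SE; the dotted line is the median of all tested probes (-0.14). Klf4 and Klf2 are at 1.77 and 1.61, Klf7 and Klf5 at 1.08 and 0.86, and the other 9 lie between -0.41 and 0.07.

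Transcripts of the ERK5 and MEF2 pathway, known from other cells to act upstream of these genes, did not pass. Whether it acts on them in this muscle was not tested. Of 12 listed genes of the ERK5 and MEF2 route 7 were measured and 0 were called, with 0 at unadjusted p under 0.05 and a median of -0.12. The kinase genes Mapk7, which encodes ERK5, and Map2k5, which encodes its activator, changed by 0.25 ± 0.27 and -0.43 ± 0.34. Mef2c changed by -0.12 ± 0.23 and Hdac5, a class IIa deacetylase that holds MEF2 inactive until muscle activity drives it from the nucleus, by -0.13 ± 0.17. Protein phosphorylation and localisation are not measured by these arrays. Of 10 listed cofactors and ubiquitin ligases that act on KLF2 or KLF4 protein 5 were measured and 0 passed, with a median of -0.29. The corepressor deacetylase Hdac3 had log2 intensities of 1.72, 1.58, 1.32 and 1.32 in contralateral and 0.91, 0.92, 0.49 and 0.19 in stimulated EDL. The groups did not overlap, and its change of -0.86 ± 0.20 (limma adjusted p 0.0865) did not pass. All stimulated values stood below all contralateral values in 1.70% of tested probes. The corepressor Ctbp1 (-0.40 ± 0.18), Hdac2 (-0.29 ± 0.21) and the ubiquitin ligase component Vhl (0.38 ± 0.24) did not pass either.

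Vascular genes that KLF2 or KLF4 are known to raise in cultured endothelium did not pass as single genes. Of 11 listed 10 were measured, 0 rose and 0 fell, with 3 at unadjusted p under 0.05 and a median of 0.10. Thbd, thrombomodulin, the endothelial anticoagulant receptor and a direct target of KLF2, was higher in 4 of 4 mice, with changes of 0.95, 1.99, 0.94 and 3.46. Its log2 intensities were -1.31, -0.68, -1.50 and -0.73 in contralateral and -0.37, 1.31, -0.56 and 2.73 in stimulated EDL, without overlap. The fitted change was 1.83 ± 0.40 (limma adjusted p 0.0668), and it was 1.29 without mouse 440. The scaffold gene Slc9a3r2 changed by 0.77 ± 0.19 (adjusted p 0.113, limma), the arginine-synthesis enzyme Ass1 by 0.70 ± 0.29 and the water channel Aqp1 by -0.60 ± 0.27. Nos3, endothelial nitric oxide synthase, was outside the naming rule and is given as the best known target: it was dim and changed by -0.03 ± 0.26.

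Vascular genes that KLF2 or KLF4 are known to lower had positive changes in all 8 measured members of 11 listed, with a median of 1.01. With limma 6 of the 8 were at unadjusted p under 0.05, against 15.2% of all tested probes. Only 1 of the 8 rose, where 1.11% of all tested probes were called higher. It was the monocyte chemokine Ccl2 (2.72 ± 0.50, limma adjusted p 0.0344, 4 of 4 mice), with 5.19 in mouse 440 and 1.90 without that mouse. Its call was lost without mouse 183 (adjusted p 0.133, limma), without mouse 197 (0.107), after quantile normalization (0.0583) and cyclic loess (0.0519), without the dimmest probes (0.0523) and without the intensity trend (0.0931). The cytokine Il6 (2.69 ± 0.54, adjusted p 0.0507, limma) did not pass, but did without mouse 438 (3.31, adjusted p 0.0205), without mouse 440 (1.87, adjusted p 0.0194) and under a floor set to the 1st percentile (adjusted p 0.0488). The vessel-destabilising ligand Angpt2 (1.28 ± 0.35) and the vasoconstrictor precursor Edn1 (0.82 ± 0.24) did not pass. Sele and F3, outside the naming rule, changed by 2.76 and 3.13 in mouse 440 and by at most 0.70 and 0.91 in the others. Edn1 and Vcam1 had their largest changes in mouse 438, at 1.34 and 0.96. Several of these genes are also induced by inflammation and by contraction itself, and whether Klf2 or Klf4 acts on them in this muscle was not tested.

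Among the other roles of Klf4, the cell cycle list had 7 of 10 genes measured, with 0 called and a median of 0.25. Birc5, survivin, which KLF4 lowers in epithelial and tumour cells, changed by 1.11 ± 0.27 (limma adjusted p 0.0979) and passed without mouse 440 (1.39, adjusted p 0.0213). The cyclins Ccne1 (-0.71 ± 0.25) and Ccnd2 (0.41 ± 0.25) and the polyamine enzyme Odc1 (0.53 ± 0.28) did not pass. The pluripotency list had 7 of 13 measured, with 0 called and a median of -0.23. Myc, itself an immediate early gene, changed by 1.72 ± 0.42 (adjusted p 0.105) and passed without mouse 438 (2.23, adjusted p 0.0326, limma), while Sox2 (-0.41 ± 0.28), Zfp42 (-0.58 ± 0.36) and Tfcp2l1 (0.41 ± 0.29) were at low or moderate intensity and did not pass. Of the macrophage genes tied to Klf4, 9 of 10 were measured, 0 were called and the median was 0.41. The lipid-sensing receptor Pparg changed by 0.93 ± 0.22 (adjusted p 0.0971, limma), the mannose receptor Mrc1 by 0.51 ± 0.23, arginase Arg1 by 0.41 ± 0.27 and the cytokine Il1b by 1.59 ± 0.56, with 4.11 in mouse 440.

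The lymphocyte homing list of KLF2 had 5 of 6 genes measured and 0 called, with a median of -0.01. S1pr1, the receptor that lets T cells leave lymphoid organs, was dim, at the floor on 1 stimulated array, and changed by -0.51 ± 0.34. The integrin Itgb7 (-0.18 ± 0.38), the chemokine receptor Ccr7 (0.18 ± 0.45) and the interleukin receptor Il7r (0.07 ± 0.28) were dim, and Ccr7 was at the floor on 4 of 8 arrays. From the list of muscle genes that KLF15 acts on, 3 of 6 were measured and 1 fell. That was Fbxo32, a ubiquitin ligase of muscle atrophy (-1.68 ± 0.24, limma adjusted p 0.0121, 4 of 4 mice), a call lost without mouse 183 (adjusted p 0.0903) and without the intensity trend (0.0551). The proline-degrading enzyme Prodh (changes of -1.14, -0.43, -1.27 and -1.15, adjusted p 0.0833) and the glucose transporter Slc2a4 (-0.49 ± 0.24) did not pass.

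**Figure D5:**
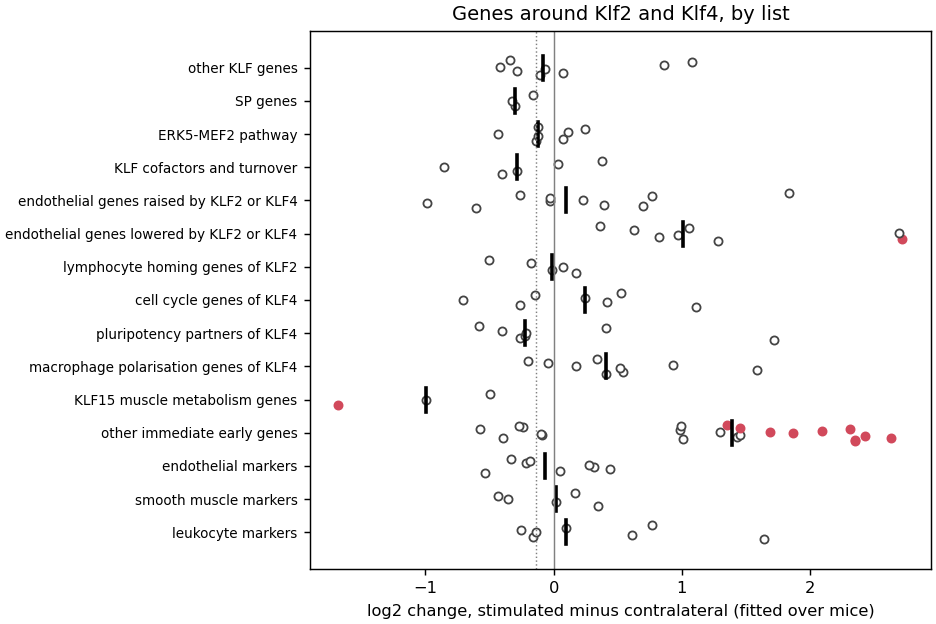
Fitted log2 change of each measured gene, by list, with filled red points for genes at limma adjusted p under 0.05, open points for the others, a black bar at each list's median and a dotted line at the median of all tested probes. Of the lists plotted, the immediate early genes hold 10 filled points of 22; the list of lowered vascular genes and the KLF15 list hold 1 each.

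Markers of cell types that express the 2 genes were read on the same arrays. Of 14 endothelial markers 8 were measured and 0 passed, with a median of -0.07 and none at unadjusted p under 0.05. Their summed intensity was 20.2 to 36.5 units in contralateral and 17.0 to 34.1 in stimulated muscles. None of the 8 was at the floor on every array; the junction cadherin Cdh5 was at it on 2 stimulated arrays and the receptor Flt1 on 1. Of 8 smooth muscle markers 5 were measured, 0 passed and the sums were 33.6 to 64.9 and 34.9 to 63.8 units. Of 12 leukocyte markers 7 were measured and 0 passed, with 2 at unadjusted p under 0.05, 4 with a positive change and a median of 0.10. Leukocyte sums were 18.6 to 112 units in contralateral and 22.3 to 568 in stimulated muscles. The pan-leukocyte gene Ptprc was at the floor on 2 stimulated arrays and the T cell gene Cd3e on 3 of 8 arrays. The leukocyte genes Cd14 and S100a8 were picked after their values were seen, and both were higher in 4 of 4 mice. In mice 183, 197, 438 and 440 Cd14 changed by 0.93, 0.96, 1.11 and 3.57 and S100a8 by 0.28, 0.34, 0.04 and 2.41. Of the other measured leukocyte markers, Fcgr3 (0.61) was higher in 4 of 4 mice. Lyz2 (-0.26) and Itgam (-0.14) were each lower in 3 of 4 mice. The changes of Ptprc and Cd3e were 0.10 and -0.16. Without mouse 440 the mean changes of Klf2 and Klf4 were 1.63 and 1.73. Any part of leukocytes in the changes of the members was not tested. In whole muscle a change in the number of cells of a type and a change in RNA per cell cannot be told apart. The cells that carried the Klf2 and Klf4 signal were not identified.

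By Pearson correlation of log2 intensity, the genes most like Klf2 were sought among 5176 probes with a symbol, a value on every array and none at the floor. Over the 7 arrays with Klf2 values these were Fxyd5, a regulator of the sodium pump (r = 0.97), the inhibitor of helix-loop-helix factors Id3 (0.97), Fam111a, a serine protease gene (0.96), the membrane protease Adam15 (0.96) and the vascular gap junction gene Gjc1 (0.96). Klf4 stood at position 14 in this order, with an r of 0.93. The genes most like Klf4, over 8 arrays, were Aldh1a2, which makes retinoic acid (0.96), Gne, the entry enzyme of sialic acid synthesis (0.96), Dock8, an exchange factor of leukocytes (0.95), the adhesion gene L1cam (0.94) and again Fam111a (0.94). In the fit over all probes Fxyd5 (1.28 ± 0.21), Id3 (1.08 ± 0.19), Aldh1a2 (1.66 ± 0.25) and L1cam (1.51 ± 0.25) rose with limma (adjusted p 0.0207, 0.0265, 0.0137 and 0.0217), each in 4 of 4 mice. These 4 calls were lost without mouse 183 and without mouse 438, and all but that of Aldh1a2 without mouse 197. Fam111a (0.73 ± 0.20), Adam15 (0.58 ± 0.21), Gjc1 (0.89 ± 0.24), Gne (0.97 ± 0.23) and Dock8 (0.59 ± 0.23) did not pass, though each was positive in every mouse. The arrays share the stimulation contrast and 4 animals, so these coefficients are a description.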

How the data were processed

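CodeLink arrays with 1 colour were hybridised with biotin-labelled cRNA made from muscle RNA, and 6 bacterial mRNAs served the scaling, per the labels' protocols. The authors deposited a single normalized intensity for each probe on each array. Their background correction, and how the scaling was computed, are not given in the sources used here. Values were used without further scaling, floored at the 5th percentile of positive values (0.0937 units) and taken to log2. Of 10500 probes 6373 had 1 symbol, 0 several and 4127 none, and all 6373 symbols were checked by Entrez identifier against the gene table of GRCm38.p6. The part of each transcript that a probe reads was not given.

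Probes with both values in 3 or more mice (10406) were tested with limma 3.58.1 in R 4.3.3, mouse as a block, an intensity trend in the prior, two-sided, and Benjamini-Hochberg adjustment over all tested probes at 0.05. The mouse number in the titles pairs muscles of 1 animal, and deviations from the group means correlated at 0.52 to 0.64 within mice. The 4 pairs limit the precision, and the median SE of a change was 0.26. The fit was also run on simulated data with noise drawn independently for each value, which cannot show how far calls depend on single mice.

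The members, gene lists and motifs were chosen with earlier results of these data known, and the motifs with both sequences in view. Named genes are the members, every measured KLF and SP gene, up to 4 genes of each other list by smallest p, and the 5 most like each member by correlation; others are said to be picked later. Alternatives changed the floor, pseudocount, scaling, filters, block and prior, or left out mice.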

Additional observations from a re-analysis of the deposited data

Results flagged for a closer look

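Among the named genes, 7 of 121 groups of 4 muscles held 1 muscle far from the other 3, by the gap to its nearest neighbour over the range of the group, and chance marks about 1 in 20 such groups. No group of Klf2 or Klf4 was among them, and the contralateral Klf2 group, with 3 values, could not be assessed. In stimulated EDL the relative Klf7 was high in mouse 440, at a log2 intensity of 4.07 against 2.96 to 3.13 in the other mice. Odc1 was high in the same muscle, at 4.33 against 3.12 to 3.26. Zfp42 (-1.51 against -3.37 to -3.25) and Ccr7 (-1.41 against -3.42 to -3.24) were also highest there, both close to the floor in the other mice. Mafk was low in the stimulated muscle of mouse 438, at 2.63 against 3.37 to 3.46. Aldh1a2, the gene most like Klf4, was low in the stimulated muscle of mouse 197, at 0.63 against 1.86 to 2.06. In contralateral EDL Nr4a1 was high in mouse 440, at 4.17 against 3.01 to 3.20.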

How the results depend on the processing

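The log2 changes of Klf2 and Klf4 moved by less than their SD over mice under every alternative run. Several of these runs could not have moved them that far. The other floors, the fit without the intensity trend and the filter on dim probes left both changes as they were. Leaving out 1 mouse cannot shift a mean over mice by its SD. The changes ranged from 1.38 to 1.84 for Klf2 and from 1.65 to 1.91 for Klf4 when 1 mouse was left out, and reached 1.81 and 1.85 after cyclic loess. In mice 183 and 197 alone they were 1.17 (Klf2, 1 mouse) and 1.52, and in mice 438 and 440 alone 1.84 and 2.03. With no replicate block, thus ignoring the pairing, they were 1.45, where Klf2 used all 7 values, and 1.77. Klf2 has no value where 8 are required. Cyclic loess moved the median change of all probes from -0.14 to -0.01.

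Calls depended on the mice and on the variance model. The 139 called probes became 0 with the floor at the 20th percentile (1296 at unadjusted p under 0.05), 1 with no replicate block (477), 50 without the intensity trend, 0 in mice 183 and 197 alone (858) and 69 in mice 438 and 440 alone, and ranged from 7 (without mouse 183) to 176 (without mouse 440) with 1 mouse left out. The 10 other immediate early genes that rose became 0 under the higher floor, with no block, without mouse 183 and in mice 183 and 197 alone, and 5 without the trend, without mouse 197 and in mice 438 and 440 alone. The 0 called KLF and SP relatives stayed 0 except without mouse 438, where Klf7 made it 1 (range 0 to 1). All 10 called named genes lost the call without mouse 183, with no block, in mice 183 and 197 alone and under the higher floor. No named gene with a call changed sign. The causes were not tested.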

Other observations

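The 4 KLF genes with the largest changes differed in which mouse held the extreme, a pattern noticed after the values were seen. Klf2 and Klf4 had their largest change in mouse 438, at 2.09 and 2.15. Klf5 and Klf7 had their smallest change there, at 0.35 and 0.09, and their largest in mouse 440, at 1.54 and 1.83. The difference between the pairs of genes was not tested.

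Satellite cell markers, which label the stem cells of muscle, had 6 of 10 genes measured and 1 that rose, Sdc4, a proteoglycan many cells make (1.11 ± 0.17, limma adjusted p 0.0164, 4 of 4 mice), named after its value was seen. With the floor at the 20th percentile and in mice 183 and 197 alone 0 probes were called, so Sdc4 lost its call there. Its call was not followed under the other settings. Slow fibre markers had 4 of 8 measured and 0 called, with a median of 0.85, and fast fibre markers 8 of 11 measured and 0 called, with a median of -0.49. Fibroblast (6 of 8 measured, median 0.09), adipocyte (2 of 6, median 0.05) and Schwann cell markers (1 of 6, at 0.52) had 0 called.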
